A study of Homo sapiens with 4 samples.

Results

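The immediate early genes described here are 10 genes, FOS, FOSL2, JUN, JUNB, JUND, ATF3, EGR1, SRF, IER2 and IER5, chosen by name from the 58243 genes listed in each table. All 10 passed the filter on low counts, among 14759 genes tested. The cells were SH-SY5Y, an established human neuroblastoma line of adrenergic character, which the labels describe as differentiated with retinoic acid. The control group was 2 libraries from cells without an agent. The other group, also of 2 libraries, had been exposed for 8 h to sodium nitroprusside (SNP), a nitric oxide donor, at a dose that the labels do not state; they call this RNA oxidized. The libraries of each group carry the letters a and b. The labels describe repeated treatments within a single experiment and do not say whether a and b were separate cultures. The p-values therefore measure the spread between these libraries, which may be technical.

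Immediate early genes are transcribed within minutes of a signal, without new protein synthesis, and their mRNAs are mostly short-lived. FOS and JUN proteins pair through leucine zippers to form AP-1, which binds short sites near many growth and stress genes; JUND and FOSL2 are the members usually present in unstimulated cells, and JUNB can weaken the action of JUN. SRF binds CArG boxes in the promoters of FOS, EGR1 and its own gene, and works with ELK-type cofactors downstream of MAP kinases and with MRTF cofactors downstream of actin. In neurons these genes respond to growth factors, depolarisation and cell stress. The only exposure time here was 8 h, so a change that had passed by then would not be seen.

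The summed gene counts were between 5613144 and 8056550 per library, so 3 counts correspond to between 0.372 and 0.534 CPM (counts scaled to the size of the library); these limits cover counting error only. In a model across all genes, 3861 of the 14759 tested genes (26.2%) differed between SNP and control at an adjusted p under 0.05. Of the 12 neuroblastoma markers looked up, 11 were measured above the filter, among them HAND2 with 2970 to 5572 counts per library, while TH was at 0 in every library. The 12 summed to between 2819 and 2890 CPM in control and between 2250 and 2411 CPM in SNP libraries, with 3 higher and 6 lower, and their part in the results here was not tested. CYP26A1, a strong retinoic acid target, was at 0 in every library, and RARB had 17 to 28 counts; of 9 such genes 7 were tested, 0 were higher and 2 lower. The 8 Schwann and glial markers summed to between 1.01 and 2.84 CPM per library, with SOX10, AQP4, OLIG2 and MBP at 0 in all, and the 6 immune markers to between 2.01 and 3.76 CPM, with PTPRC, AIF1 and CD3E at 0. The 8 mesenchymal markers summed to between 121 and 131 CPM in control and between 120 and 121 CPM in SNP libraries, with 1 higher and 2 lower, and the 6 epithelial markers summed to between 3.73 and 4.93 CPM. In bulk RNA, fewer cells of a type and less RNA per cell cannot be told apart.

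Of the 10 genes, 5 were higher in SNP libraries (IER2, IER5, ATF3, JUN and SRF), 2 were lower (EGR1 and JUNB), and FOS, FOSL2 and JUND did not pass the test. The 7 genes called make 70.0% of the 10, beside 26.2% of all genes tested. The 10 genes were chosen with earlier results of these data known, so neither their shares nor their median speak for immediate early genes in general. Of 32 other immediate early genes tested, 37.5% were called, with a median log2 fold change of -0.30. By direction, 5 of 10 were higher, beside 13.6% of all genes tested, and 2 of 10 were lower, beside 12.6%. The median log2 fold change was 0.55 over the 10 genes and -0.0042 over all genes tested. Both SNP values lay above both control values for 6 of the genes, beside 31.7% of all genes tested, and below them for 2 genes, beside 32.3%. With offsets for length, GC and guanine over cytosine in the transcripts, 5 of the 10 were higher and 0 lower, so both falls depend on that setting. DESeq2's Wald test called 4 of the 10 (IER2, IER5, SRF and EGR1), and the calls also numbered 4 without control a and 4 without control b.

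**Figure D1:**
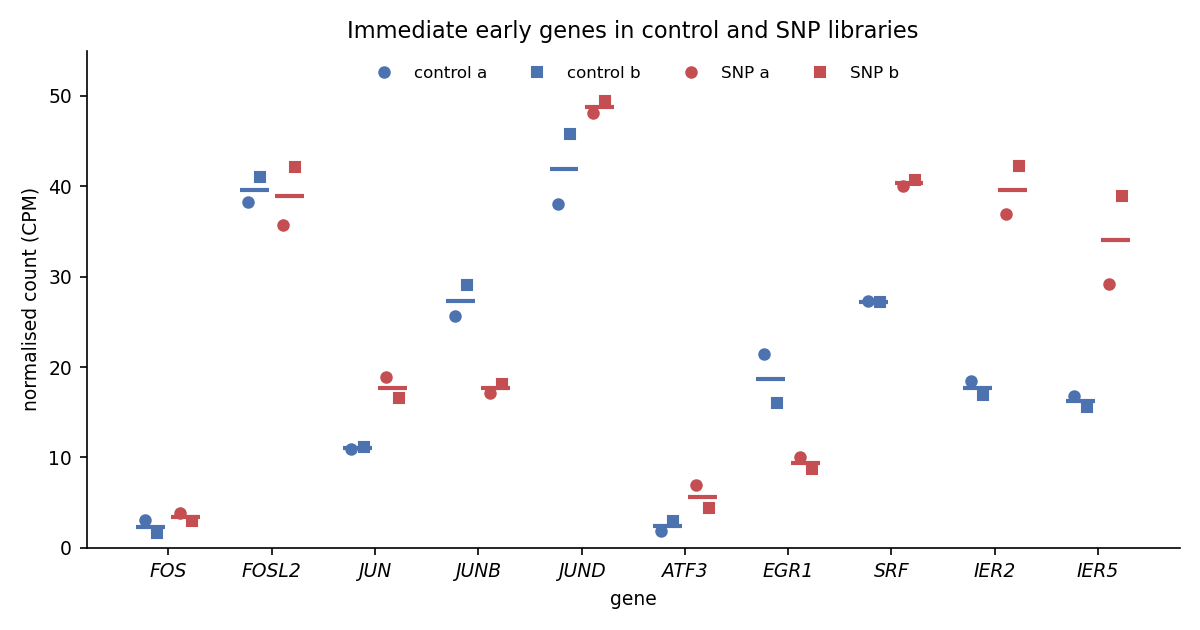
Normalised counts (CPM, linear axis from 0) of the 10 genes in each of the 4 libraries; circles are libraries a, squares are libraries b, and short lines are group means (n = 2). The SNP values of IER2 (36.9 and 42.3) and SRF (40.03 and 40.7) sit above the control values, those of EGR1 (10.1 and 8.69) sit below, and those of FOS and FOSL2 overlap.

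In the JUN family JUN was higher, JUNB was lower and JUND did not pass the test. JUND was called higher with offsets for length and GC alone, and again with guanine over cytosine added. In the latter setting neither JUN (0.54, edgeR adjusted p = 0.0570) nor JUNB was called. JUN (ENSG00000177606; chromosome 1, 58780788 to 58784327, minus strand, GRCh38 positions from GENCODE 29) has a single exon of 3540 bases. It was counted 71 and 63 times in control a and b, and 150 and 128 times in SNP a and b. The levels were 10.9 and 11.2 CPM in control and 18.9 and 16.6 CPM in SNP libraries. Both SNP libraries were thus above both controls, with the wider spread inside the SNP group. The log2 fold change was 0.68 (SE 0.205), a 1.60-fold rise, with a Benjamini-Hochberg adjusted p of 0.0178 from the quasi-likelihood test of edgeR. The call was lost with DESeq2's Wald test (adjusted p = 0.0945) and, in edgeR, without control a (adjusted p = 0.0976), control b (0.0732) or SNP a (0.0778).

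JUNB (ENSG00000171223; chromosome 19, 12791496 to 12793315, plus strand), the JUN relative that has weaker activity at AP-1 sites, was counted 166 and 164 times in control and 136 and 140 times in SNP libraries. Its levels were 25.6 and 29.1 CPM in control and 17.1 and 18.2 CPM in SNP libraries. The raw counts differ less than the levels, because the SNP libraries were deeper. JUNB fell by 0.63 on the log2 scale (SE 0.173, edgeR adjusted p = 0.0098). The fall was lost without control b, the higher of the controls (-0.54, edgeR adjusted p = 0.117), and narrowly with DESeq2's Wald test (adjusted p = 0.0522). It was also lost with length and GC offsets (-0.38, edgeR adjusted p = 0.0759) and with guanine-over-cytosine offsets added (-0.14, 0.551). Its exon shares 259 of 1820 bases with an exon of HOOK2 on the other strand, which had 116 to 209 counts per library and a log2 fold change of 0.30 (edgeR adjusted p = 0.224); whether the counting used strand is not given in the sources used here.

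JUND (ENSG00000130522; chromosome 19, 18279760 to 18281622, minus strand), the family member least dependent on stimulation, was counted 247, 258, 382 and 381 times in control a, control b, SNP a and SNP b. At 38.1 and 45.8 CPM in control and 48.1 and 49.4 CPM in SNP libraries, the groups did not overlap but lay close together. The log2 fold change was 0.22 (95% interval -0.065 to 0.50, edgeR adjusted p = 0.255), an interval that reaches a 1.42-fold rise. JUND was called higher with length and GC offsets alone. With guanine over cytosine added its log2 fold change was 0.71, beyond that interval, and called (edgeR adjusted p = 0.0022).

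Levels per transcript length show how the family was made up. In deposited TPM (a relative level that divides by gene length), JUND was the most abundant JUN gene in every library, at 95.3 and 117 without SNP and at 129 and 139 with it. Of the summed JUN, JUNB and JUND TPM, JUNB made up 37.0 ± 0.589% (SD, n = 2) without and 23.7 ± 0.725% (SD, n = 2) with SNP. Over the same libraries the share of JUN went from 7.72 ± 0.709% to 12.3 ± 1.25%, and that of JUND from 55.3 ± 1.30% to 64.02 ± 0.526%. The ratio of JUN to JUNB, which does not depend on library scaling, was 0.220 and 0.198 without SNP and 0.567 and 0.470 with it. These genes lie far apart in guanine minus cytosine content (percentiles 89.3 and 10.6 of tested genes). Neither was called with the guanine-over-cytosine offsets, which the TPM shares and ratios do not include. The summed TPM of the family overlapped between groups, at 175 and 208 without SNP and at 203 and 215 with it.

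**Figure D2:**
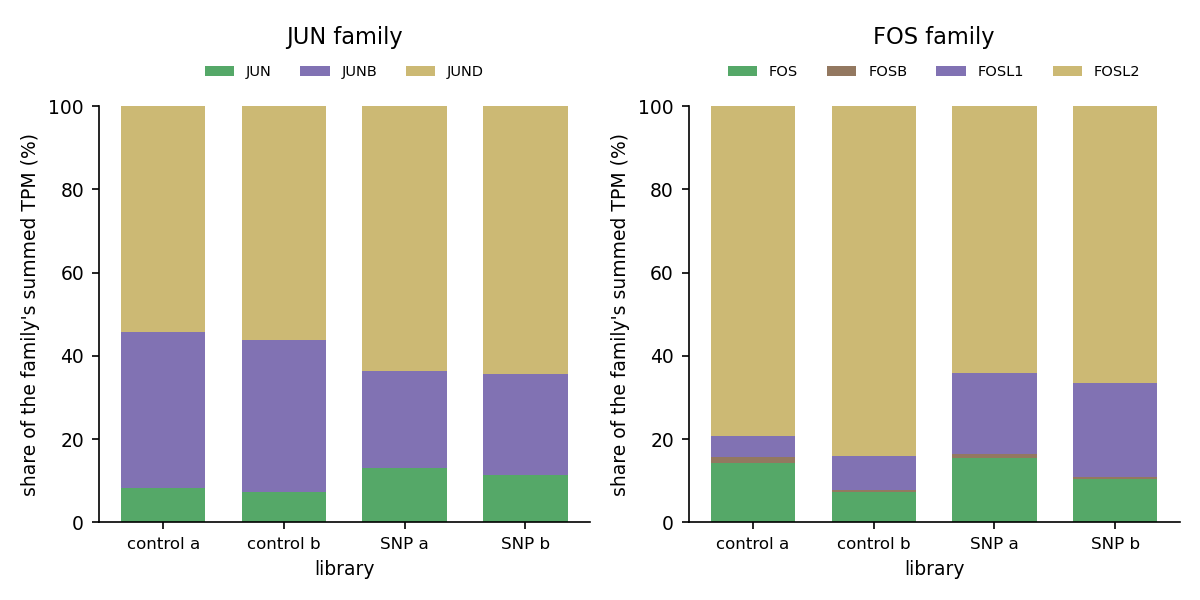
Share of each gene in the summed TPM of the JUN family (left) and of the FOS family (right) in each library, as stacked bars from 0 to 100%. JUNB is 37.4 and 36.6% of its family without SNP and 23.2 and 24.2% with it, and FOSL1 is 4.85 and 8.28% of its family without SNP and 19.7 and 22.5% with it.

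On the FOS side, FOSL2 was the main transcript and FOS itself was scarce. FOS (ENSG00000170345; chromosome 14, 75278774 to 75282230, plus strand), the best known immediate early gene, was counted only 20, 9, 31 and 23 times in control a, control b, SNP a and SNP b. Its levels were 3.08 and 1.60 CPM in control and 3.90 and 2.98 CPM in SNP libraries, and the groups overlapped. The log2 fold change was 0.53 with a 95% interval from -0.40 to 1.46 (edgeR adjusted p = 0.411), which spans folds from 0.760 to 2.76. FOSL2 (ENSG00000075426; chromosome 2, 28392448 to 28417312, plus strand), a FOS relative with slower and longer expression, had 38.2 and 41.01 CPM in control and 35.8 and 42.1 CPM in SNP libraries. These values overlap. The log2 fold change was -0.024 (95% interval -0.32 to 0.27, edgeR adjusted p = 0.923), an interval that reaches a 1.21-fold rise.

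The other FOS genes were near the limit of counting. FOSL1 (ENSG00000175592), a late-induced FOS relative, was counted 4 and 6 times without SNP and 23 and 29 times with it, and rose by 1.98 on the log2 scale (SE 0.545, edgeR adjusted p = 0.0101). That estimate rests on the 10 control counts, and the call was lost without control a (adjusted p = 0.110) or SNP b (0.113). FOSB had 1 to 4 counts per library and was not tested. Of the summed TPM of the 4 FOS genes, FOSL1 accounted for 6.57 ± 2.42% without and 21.1 ± 2.02% with SNP, and FOSL2 for 81.7 ± 3.30% and 65.3 ± 1.79% (SD, n = 2).

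ATF3 (ENSG00000162772; chromosome 1, 212565334 to 212620777, plus strand), a stress-induced repressor that pairs with JUN proteins and is a target of both ATF4 and p53, had the largest fold of the 10 genes and low counts. It was counted 12 and 17 times without SNP and 55 and 34 times with it. The levels were 1.85 and 3.02 CPM in control and 6.92 and 4.41 CPM in SNP libraries, so the groups did not overlap although each spread widely. ATF3 rose 2.35-fold (log2 fold change 1.23, SE 0.400, edgeR adjusted p = 0.0269). Without control a the log2 fold change was 0.90 (adjusted p = 0.197) and without SNP a it was 0.87 (0.313), and DESeq2's Wald test did not call it (0.127).

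EGR1 and SRF are linked in textbook circuits, since SRF drives EGR1 from CArG boxes in its promoter. EGR1 (ENSG00000120738; chromosome 5, 138465490 to 138469315, plus strand) encodes a zinc finger activator induced by MAP kinase signalling. It was counted 139 and 90 times without SNP and 80 and 67 times with it, or 21.4 and 16.0 CPM against 10.1 and 8.69 CPM. Both SNP values were below both control values, and the controls were further from each other than the SNP libraries were. EGR1 fell by 1.00 on the log2 scale (SE 0.220, edgeR adjusted p = 0.0019), and the call was lost with the guanine-over-cytosine offsets (-0.41, adjusted p = 0.198). SRF (ENSG00000112658; chromosome 6, 43171299 to 43181507, plus strand) was counted 177 and 153 times in control and 318 and 314 times in SNP libraries. Its replicates were the closest of the 10 genes, at 27.3 and 27.2 CPM in control and 40.03 and 40.7 CPM in SNP libraries. The rise was 1.48-fold (log2 fold change 0.57, SE 0.147, edgeR adjusted p = 0.0066), and it narrowly missed the threshold without control a (adjusted p = 0.0585) or control b (0.0538). The ratio of SRF to EGR1 in TPM, which does not include those offsets, was 0.951 and 1.27 without SNP and 2.97 and 3.50 with it.

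The promoters of these genes are shown because both hold CArG boxes, the sites that SRF binds, and the EGR motif. Each window runs from 250 bases before to 50 bases after the start site (RefSeq, GRCh38.p14), 5′ to 3′ on the gene's strand. Capitals mark CArG boxes (CC, then 6 bases that are each A or T, then GG) and the EGR motif GCGNGGGCG. The EGR1 window is chr5:138465229-138465528 and the SRF window is chr6:43171019-43171318, both on the plus strand.
EGR1: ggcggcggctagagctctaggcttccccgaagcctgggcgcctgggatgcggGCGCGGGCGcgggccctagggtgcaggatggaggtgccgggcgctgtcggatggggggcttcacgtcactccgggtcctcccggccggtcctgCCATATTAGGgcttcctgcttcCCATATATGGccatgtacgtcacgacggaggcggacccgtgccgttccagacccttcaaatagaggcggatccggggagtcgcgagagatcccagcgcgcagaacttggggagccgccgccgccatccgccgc
SRF: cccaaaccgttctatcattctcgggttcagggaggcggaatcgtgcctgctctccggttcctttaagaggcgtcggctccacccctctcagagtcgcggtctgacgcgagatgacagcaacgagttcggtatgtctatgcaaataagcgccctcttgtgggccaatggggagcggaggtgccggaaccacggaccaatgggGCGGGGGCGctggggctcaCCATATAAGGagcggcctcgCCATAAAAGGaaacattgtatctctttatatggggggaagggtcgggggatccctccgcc

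Each of these windows held 2 CArG boxes and 1 EGR motif. The CArG boxes began at -105 and -83 from the EGR1 start and at -30 and -10 from the SRF start, and the EGR motif began at -198 and at -49. On either strand, CArG boxes were found in 1.05% and the EGR motif in 14.8% of the 15289 promoter windows of tested genes. Over the 12 windows of the 10 genes (ATF3 and SRF have 2 each), CArG boxes were found in 2 and the EGR motif in the same 2, the windows printed here. The AP-1 motif TGANTCA was found in 1 window, that of FOSL2 at +5, beside 4.92% of the windows of tested genes. The full CRE TGACGTCA, the site of CREB and ATF proteins, was found in that of JUND alone, at -200, beside 2.77%, and its shorter form TGACG, which every full CRE also holds, in 8 of 12 windows, beside 31.7%. A match is a description of these letters, and distal elements lie outside the windows.

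IER2 and IER5 rose, and passed the threshold under every alternative in which each was tested. IER2 shares exonic bases with another gene, so the run on genes without exonic overlap left it out. IER2 (ENSG00000160888; chromosome 19, 13150415 to 13154908, plus strand), a small nuclear early response protein, was counted 120 and 95 times in control and 293 and 326 times in SNP libraries. Its levels were 18.5 and 16.9 CPM in control and 36.9 and 42.3 CPM in SNP libraries, a gap much wider than the spread inside either group. IER2 rose 2.23-fold (log2 fold change 1.16, SE 0.164, edgeR adjusted p = 3.1e-05). The antisense gene AC011446.2 lies wholly inside IER2 exons, over 946 bases, and was at 0 counts in every library. Whether the counting used strand is not given. Its reads could have been dropped or counted for IER2, so the 0 does not show that it was silent. IER5 (ENSG00000162783; chromosome 1, 181088712 to 181092899, plus strand), which promotes the activity of heat shock factor HSF1 and is a p53 target, was counted 109 and 88 times in control and 232 and 300 times in SNP libraries. That is 16.8 and 15.6 CPM against 29.2 and 38.9 CPM. The SNP libraries differed from each other more than the controls did, and both lay far above them. IER5 rose 2.09-fold (log2 fold change 1.07, SE 0.181, edgeR adjusted p = 1.9e-04).

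**Figure D3:**
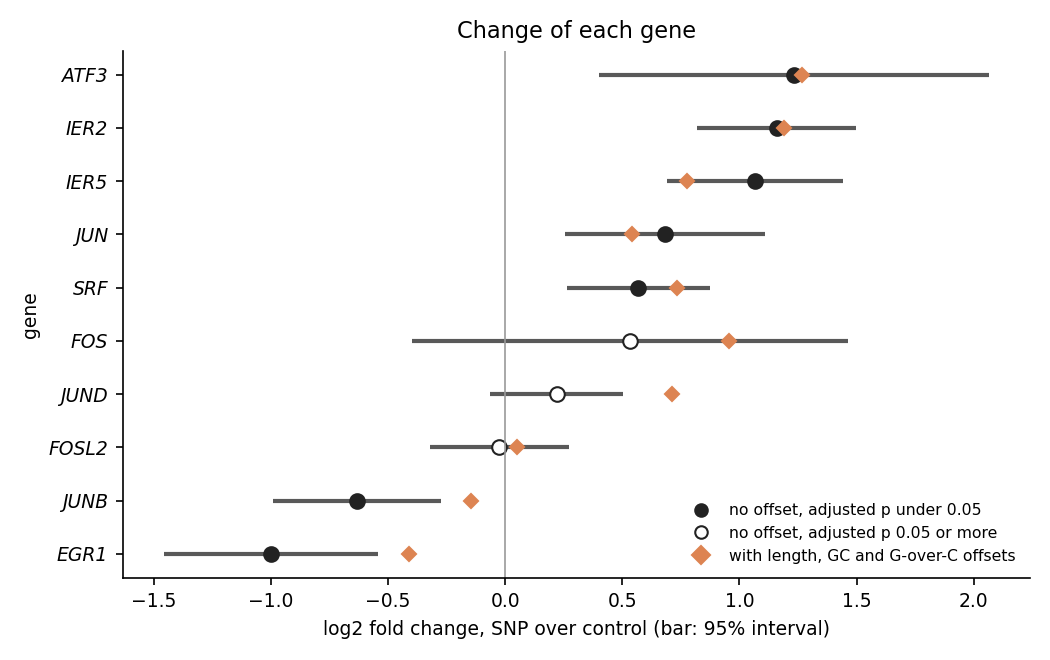
Log2 fold change of SNP over control for each of the 10 genes, as circles with 95% intervals (filled where the adjusted p was under 0.05), and as diamonds after offsets for length, for GC and for guanine over cytosine. The diamonds of IER2 (1.19) and ATF3 (1.27) lie on their circles, those of JUNB (-0.14) and EGR1 (-0.41) move toward 0, and that of JUND (0.71) moves away from it.

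The order of levels per length changed. In control libraries the mean TPM ran from JUND (106 ± 15.2) and JUNB (70.8 ± 7.38) through SRF, EGR1, IER2, FOSL2, IER5 (18.2 ± 0.696) and JUN (14.7 ± 0.421) to FOS (3.39 ± 1.48) and ATF3 (2.84 ± 1.00) (SD, n = 2). From SRF (30.5 ± 0.308) to FOSL2 (26.1 ± 1.64) the neighbours in this order were not separated: EGR1, at 24.2 and 31.8, overlapped all of them, and so did FOS and ATF3 with each other. In SNP libraries JUND (134 ± 6.90) was still first. IER2 (66.0 ± 8.48) came second, before JUNB (49.6 ± 3.66), SRF (49.1 ± 2.19) and IER5 (41.7 ± 9.72), of which the last 3 overlapped, as did FOSL2 with JUN and ATF3 with FOS. EGR1 (15.3 ± 1.10) now lay below JUN (25.6 ± 1.50), without overlap, where in control libraries it lay above it. These TPM do not include the guanine-over-cytosine offsets, with which EGR1, JUNB and JUN were not called.

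The genes that were lower are poor in guanine relative to cytosine, and most that were higher are not. Across the 10 genes the Spearman correlation of the log2 fold change with guanine minus cytosine content was 0.770 (n = 10 genes that share the same 4 libraries), and across all genes tested it was 0.480. EGR1 transcripts hold 32.0% cytosine but 23.4% guanine. By this difference EGR1 lies at percentile 0.645 of the tested genes and JUNB at percentile 10.6. IER5 and JUN lie at percentiles 92.8 and 89.3, IER2 at 79.2, ATF3 at 56.1 and SRF at 46.0. In the 10% of tested genes with the least guanine relative to cytosine the median log2 fold change was -0.43, and 31 genes were higher and 555 lower; in the 10% with the most it was 0.39, with 612 higher and 25 lower. FOS is among that lowest 10% and was at 0.53, and FOSL1, at percentile 0.428, rose.

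With offsets on length, on GC and on the excess of guanine over cytosine, the 2 falls were no longer called, as given beside JUNB and EGR1. JUN was lost narrowly, while IER2 (1.19), IER5 (0.78), ATF3 (1.27) and SRF (0.73) were called again. JUND came to pass, as it did with length and GC offsets alone. Of the 10 genes 5 were then higher and 0 lower, and at an unadjusted p under 0.05 the number lower was also 0 in edgeR. With the replicate block added to these offsets, 4 were higher, IER2 and IER5 among them, and 0 lower. The part of base composition in these changes was not tested beyond these offsets.

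**Figure D4:**
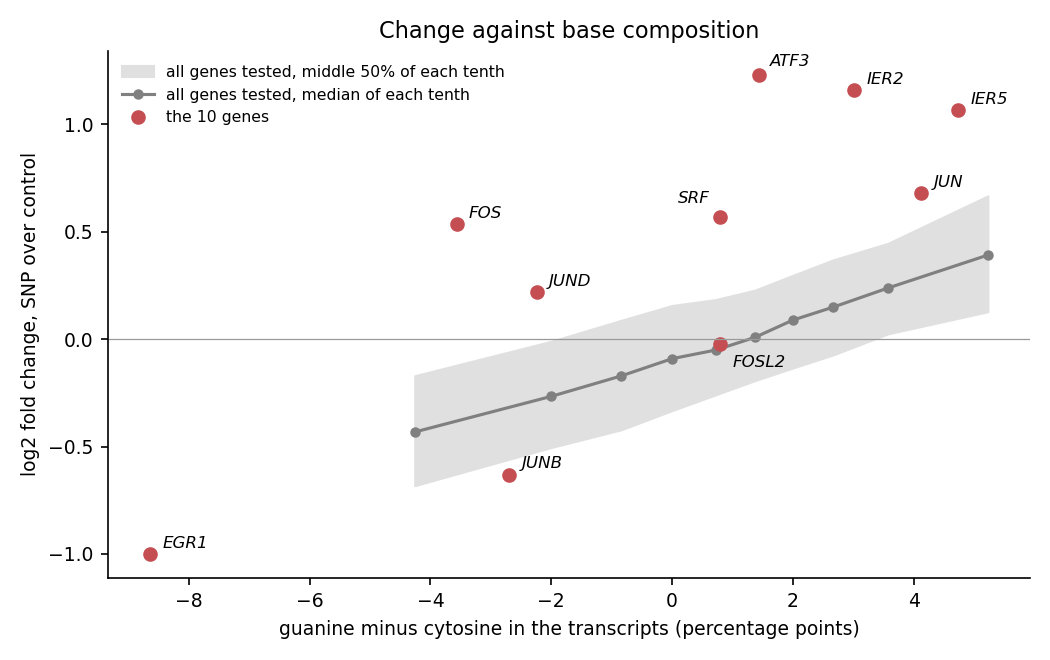
Log2 fold change of SNP over control against guanine minus cytosine content of the transcripts (percentage points); red points are the 10 genes, and the grey line and band are the median and the middle 50% of genes in 10 equal groups of all genes tested. EGR1 and JUNB lie on the left, below the middle 50% of their group, and FOSL2 lies inside its own. The other 7 (FOS, JUND, SRF, ATF3, IER2, JUN and IER5) lie above theirs.

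The mRNAs of immediate early genes are known for AU-rich elements, which contain the pentamer ATTTA (as DNA letters) and shorten mRNA life. The 3′ UTR of the longest coding transcript held this pentamer in 9 of the 10 genes, beside 68.2% of 12518 tested genes with a 3′ UTR. The number was 10 in IER5, 9 in FOSL2, 5 in FOS, 3 each in JUN, ATF3 and SRF, 2 in JUNB, 1 each in JUND and EGR1, and 0 in IER2. The UTRs differ in length, from 500 bases in JUNB to 4864 in FOSL2. Genes with many and with no copies were thus both among those that rose. Of 14 genes for proteins that bind such elements or act on mRNA life, 4 were higher and 2 lower (42.9% called, beside 26.2% of all genes tested). HNRNPD, which encodes AUF1, rose from 165 ± 1.81 to 294 ± 45.5 CPM (log2 fold change 0.83), ZFP36L2, which promotes decay, fell by 0.77, ELAVL4, a neuronal stabiliser, fell by 0.41 and CELF1 rose by 0.44. The other 2 that rose, named after their values were seen, were ZFP36L1 (1.34, on 12 counts in each control library) and TIA1 (0.29, edgeR adjusted p = 0.0499). HNRNPD was no longer called with the guanine-over-cytosine offsets (0.043, edgeR adjusted p = 0.713), and neither was ZFP36L2 (-0.33, 0.0543). ZFP36, itself an immediate early gene and named with its values known, had 15 to 30 counts per library and a log2 fold change of -0.39 (edgeR adjusted p = 0.564).

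Among 15 further AP-1 and MAF family genes 8 were tested, 3 were higher and 1 lower (beside 13.6% and 12.6% of all genes tested), with a median log2 fold change of 0.42. Besides FOSL1, the small MAF genes MAFG and MAFK, partners of NRF2, rose by 0.70 and 0.92, MAFG from 75.1 ± 5.96 to 122 ± 10.1 CPM. MAFK shares 809 exonic bases with TMEM184A, and its call was lost with the guanine-over-cytosine offsets (0.76, edgeR adjusted p = 0.0888). ATF7, a relative of ATF2, fell by 0.68. Much of the exon length of ATF7 is shared with other annotated genes, up to 2043 bases with AC023509.2, so its counts are uncertain. The EGR relatives were hardly expressed: EGR2 had 3 to 9 counts per library, EGR3 had 5 to 12 with a log2 fold change of 0.27 (edgeR adjusted p = 0.790), and EGR4 was at 0. NAB1, a corepressor of EGR proteins, rose by 0.82, from 63.6 ± 5.58 to 112 ± 17.5 CPM, and NAB2, an EGR1 target named with its value known, was at 0.34 (edgeR adjusted p = 0.198).

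SRF rose, while of its 5 tested cofactor genes 0 were higher and 3 lower (beside 13.6% and 12.6% of all genes tested): the log2 fold change was -0.49 for ELK1, -0.50 for MKL1 (MRTFA) and -0.34 for MKL2 (MRTFB). All 3 calls were lost with the guanine-over-cytosine offsets, where ELK1 was at -0.020 and MKL1 at -0.11. Of 15 tested SRF and MRTF targets 3 were higher and 4 lower (46.7% called, beside 26.2% of all genes tested). ACTB, the cytoplasmic actin gene, fell by 0.95, from 1940 ± 6.66 to 1005 ± 57.0 CPM (edgeR adjusted p = 7.6e-08), and zyxin (ZYX) fell by 0.81, whereas MYH9 rose by 0.71 and TPM2 by 1.06. The call of ZYX was lost with the guanine-over-cytosine offsets (-0.19) and that of TPM2 without SNP a (0.61).

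Of 40 other immediate early genes 32 were tested, 5 were higher and 7 lower (beside 13.6% and 12.6% of all genes tested). The share called was 37.5%, beside 26.2%. The median log2 fold change was -0.30, beside -0.0042 over all genes tested. The tested genes of this list are poorer in guanine relative to cytosine, with a median difference of -1.33 percentage points beside 1.04 over all genes tested. With the guanine-over-cytosine offsets GADD45A, ID3 and PER1 were called again, each in the same direction. Values of the other called genes with these offsets are not given here. Beyond such offsets the part of base composition in these changes was not tested. All of the called genes are named here, those other than GADD45A, IER5L, ID3 and PER1 after their values were seen. Higher were GADD45A (2.61), BTG2 (1.07), PLK3 (0.99), PPP1R15A (0.87) and MCL1 (0.45), where values are log2 fold changes. GADD45A, BTG2 and PLK3 are also known as p53 targets, and PPP1R15A as a target of ATF4, but no pathway was tested here. Lower were IER5L (-1.29), ID3 (-1.25), PER1 (-1.12), MYC (-1.04), ID2 (-0.67), NR4A1 (-0.63) and SGK1 (-0.42). GADD45A went from 20 and 24 counts to 181 and 169. ARC, NPAS4 and NR4A3, which mark neuronal activity and were also chosen after their values were seen, were at 0.64, -0.50 and -0.49 with edgeR adjusted p of 0.160, 0.545 and 0.152, on 9 to 83 counts per library.

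Of 29 kinases, CREB family factors and coactivators upstream of these genes 8 were lower and 2 higher. That is 34.5% called, beside 26.2% of all genes tested, with a median log2 fold change of -0.086. With the guanine-over-cytosine offsets 5 were lower and 0 higher. MAP2K6, an activator of p38 MAP kinase, fell from 42.6 ± 0.781 to 15.5 ± 2.84 CPM (log2 fold change -1.46, edgeR adjusted p = 3.0e-06). The CREB coactivators CRTC1 and CRTC2 fell by 0.79 and 0.78, and MAPK10, the neuronal JNK, by 0.72. CRTC1 and CRTC2 were not called with the guanine-over-cytosine offsets (-0.24 and -0.23). Of 10 tested genes from a list of AP-1 targets, 1 was higher and 1 lower, a share of 20.0% called that lies below the 26.2% of all genes tested. CDKN1A, which p53 also drives, rose by 2.25, from 20.2 ± 1.15 to 95.9 ± 24.9 CPM (edgeR adjusted p = 1.1e-08), and VIM fell by 0.59. CCND1, a textbook AP-1 target likewise picked with its values known, with 6350 to 9727 counts per library, was at 0.13 (edgeR adjusted p = 0.242), with groups of 1131 ± 4.66 and 1241 ± 28.0 CPM.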

How the data were processed

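RNA of 2 control and 2 SNP libraries was compared. Each deposited table gives, per gene, a count of reads, a TPM and an RPKM value made by the authors. The genome build was GRCh38, per the submitters' processing notes, and the aligner, counter, annotation and strand setting are not given in the sources used here. From the deposited RPKM values the read totals behind them were computed, and the counts amount to between 11.5% and 13.3% of these totals. Positions, exon lengths and base content came from GENCODE 29, in which 57980 of 58243 gene IDs matched, and promoter windows from RefSeq (GRCh38.p14).

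Genes were kept by edgeR's filter (minimum count 10, minimum total 15). Counts were scaled with TMM and tested with edgeR 4.0.16's quasi-likelihood test across the 4 libraries in R 4.3.3, with Benjamini-Hochberg adjustment over all 14759 genes and a threshold of 0.05. DESeq2 1.42.0 (Wald test), limma 3.58.1 (voom), other scalings and filters, a replicate block, leaving out each library, and lowess offsets (span 0.5) for length, GC and guanine-over-cytosine content were alternatives. The code was tested on simulated counts. The 10 genes and the lists were chosen with earlier results of these data known. In each list up to 4 genes were named, those with the largest absolute log2 fold change among genes called, without overlap of the groups and with a mean of at least 5 CPM, besides FOSB, FOSL1 and EGR2 to EGR4.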

Additional observations from a re-analysis of the deposited data

How the results depend on the processing

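Of 185 values of the 10 genes under the alternatives, 178 kept the sign of the reported value. The 185 include the settings with stricter thresholds, which reuse the reported values and so could not change sign. IER2 (log2 fold change 1.06 to 1.34) and IER5 (0.76 to 1.26) passed the threshold in all of theirs. The number of the 10 called was 4 with DESeq2's Wald test, 3 with a minimum absolute log2 fold change of 1, 4 with the guanine-over-cytosine offsets and the replicate block together, and between 4 and 7 when 1 library was left out. Over all genes the number called was 2415 with DESeq2's Wald test, 2018 without genes that share exons, 2224 at a threshold of 0.01, 647 with a minimum absolute log2 fold change of 1 added, and between 2447 and 4144 when 1 library was left out. With totals taken from the RPKM values as library sizes, 2085 genes were higher and 1218 lower (63.1% higher, beside 51.9%), where the median of all genes was 0.064. With a minimum absolute log2 fold change of 1, 61.8% were higher. FOSL2, near 0, changed sign to 0.043 with the RPKM totals, 0.0063 with length and GC offsets (0.0029 with the block), 0.050 with guanine-over-cytosine offsets (0.047 with the block), and, when 1 library was left out, lay between -0.14 and 0.090 (0.025 without control b, 0.090 without SNP a). EGR3 lay between -0.19 (without control a) and 0.85. The cause was not tested. The letters a and b are not shown to pair libraries: the deviations of same-letter libraries correlated at 0.0502, and with the letter as a replicate block 4487 genes and 7 of the 10 were called. FOS, ATF3 and FOSL1 rest on few counts, so counting error weighs most on them.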
